A study of Mus musculus with 8 samples.

Results

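Insulin is stored in dense-core granules of β-cells and released when calcium enters the cell and the granule membrane fuses with the plasma membrane. Rab GTPases and their effectors bring granules to the membrane, priming proteins make them ready for release, and SNARE proteins on both membranes zip together to fuse them. Synaptotagmins and related proteins couple fusion to calcium, and NSF with its SNAP adaptors takes the SNARE complexes apart afterwards. To describe this machinery in aged islets with and without β-cell knockdown of Igf1r, 39 genes chosen by symbol were examined among 53012 gene identifiers, and all 39 were found. They fell into 8 roles, from synaptotagmins to granule membrane proteins.

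Islets of 17-month-old mice were profiled by bulk RNA-seq, 1 library per mouse, in 4 βIgf1r mice (labelled CTRL) and 4 βIgf1rKD mice (labelled KD). Both groups were Igf1r flox/flox, with exon 3 of Igf1r floxed, and both held males and females that are not marked per mouse. βIgf1rKD mice were Ins1-CreERT2+/- and received 5 daily intraperitoneal injections of tamoxifen at 0.075 mg/g body weight. βIgf1r mice were Ins1-CreERT2-/- and received corn oil. Islets were taken from both groups 7 days after injections ended. Cre and tamoxifen were present only in the βIgf1rKD group, so that their effects and that of losing Igf1r in β-cells cannot be told apart. The study's methods call the Cre promoter a rat insulin promoter, whereas the genotype is written Ins1-CreERT2.

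Total estimated counts were 21634080 to 31202154 per βIgf1r library and 23826023 to 42391328 per βIgf1rKD library. As a check for a library deposited more than once, counts were compared between mice of a group, and the lowest chi-square per degree of freedom was 78.4, so that each library was counted as 1 sample. Levels are given as CPM, counts scaled to library size and to TMM factors, which adjust each library for its RNA composition. All comparisons of CPM between mice rest on that scaling. The targeted gene Igf1r (ENSMUSG00000005533) had 46.9, 48.0, 60.9 and 58.7 CPM in βIgf1r mice M148, M151, M152 and M153, the order of mice used throughout. It had 46.9, 50.2, 57.9 and 47.8 CPM in βIgf1rKD mice M145, M146, M149 and M150. These groups overlapped, with a log2 fold change of -0.08 ± 0.11 (SE), but a count over the whole gene in whole islets does not measure the floxed exon in β-cells and does not check the labels. Ins1, the gene whose name the Cre allele carries, had 31090 to 50370 CPM in βIgf1r and 19120 to 28540 CPM in βIgf1rKD mice, without overlap (edgeR unadjusted p = 0.0204, adjusted p = 0.987), whereas Ins2 overlapped. β-cell markers, a list of 9 genes that includes both insulin genes, took 16.2% to 22.4% of the counts in βIgf1r and 10.2% to 22.1% in βIgf1rKD mice. Markers of acinar cells, the digestive enzyme cells around the islets, took 1.92% to 14.2% and 4.08% to 16.2%. All 12 acinar markers had a log2 fold change above 0 in βIgf1rKD, 0 of them at an unadjusted p under 0.05. All 11 endothelial markers had one below 0, 6 of them at that threshold and 0 after adjustment, and took 0.0490% to 0.0735% and 0.0341% to 0.0511% of the counts. Of 10 Schwann cell and neuron markers, cell types that share much of this machinery, 9 lay below 0 with 0 at an unadjusted p under 0.05, at 0.0188% to 0.0277% and 0.0149% to 0.0251% of the counts. All 8 macrophage markers lay above 0, 1 of them at that threshold, at 0.0107% to 0.0169% and 0.00929% to 0.0216%. Xist, the RNA of the inactive X chromosome, was high in 1 of 4 βIgf1r libraries (M151) and 3 of 4 βIgf1rKD libraries (M145, M146 and M150), at 8.08 to 8.68 (log2 CPM) against 0.37 to 2.76 in the others. This unequal split runs along each comparison of the groups. The part of these other cells in the results was not tested beyond the covariates and correlations given beside them. Endothelial shares overlapped between the groups only by M152 and M146. A fit with the endothelial score can therefore hardly separate that score from group. In such bulk samples fewer cells of a type and less RNA per cell cannot be told apart.

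The machinery was present at widely different levels. Levels between genes were compared as CPM per kb of exon, averaged over the 8 mice. Syt13, a synaptotagmin that does not bind calcium, was highest at 222 CPM per kb, with 191 to 254 over the mice. It was followed by the dense-core granule phosphatase-like proteins Ptprn (IA-2) at 109 and Ptprn2 (phogrin) at 80.5, with the SNARE clamp complexin 2 (Cplx2) at 84.0 CPM per kb. Over the mice the range of Cplx2 overlapped with those of both Ptprn and Ptprn2, so that its place between them is within the spread. Sytl4 (granuphilin), a Rab27 effector that docks granules, Napa, the SNAP adaptor of NSF, and the granule Rab GTPase Rab27a stood close together at 52.5, 49.8 and 49.2 CPM per kb. Vamp2, the main vesicle SNARE of insulin granules, had 45.4 CPM per kb.

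The plasma membrane SNAREs were lower than Vamp2, with Snap25 at 14.1, Snap23 at 7.17, Stx4a at 9.63, Stx3 at 5.01 and Stx1a at 3.28 CPM per kb. Among the priming factors Cadps, which prepares dense-core vesicles for fusion, was highest at 8.82 CPM per kb, and its relative Cadps2 had 1.42. At the lower end stood Rab3c at 0.95, complexin 1 (Cplx1) at 0.81 and Rab27b at 0.47 CPM per kb. Rims1, an active zone scaffold, had 4 to 14 estimated counts per mouse in all, did not pass the filter on low counts and was not tested. Together the 39 genes took 0.363% to 0.665% of the counts of a library.

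**Figure D1:**
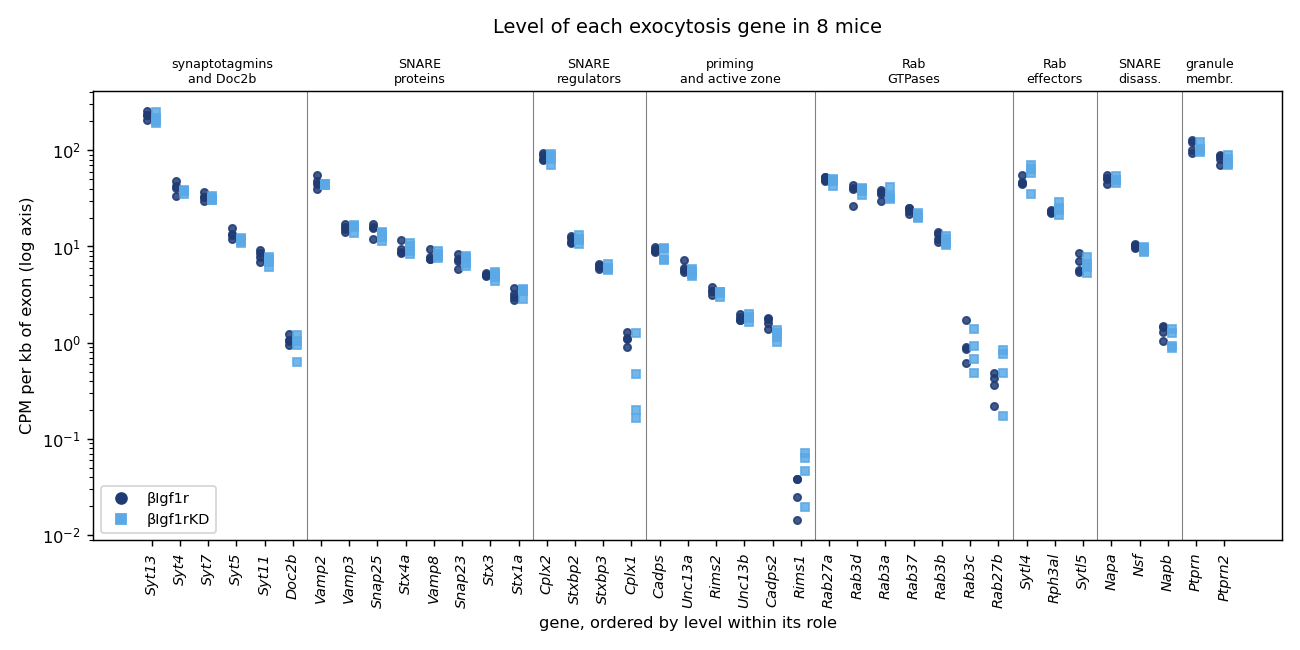
Level of each of the 39 exocytosis genes in CPM per kb of exon (log axis), grouped by role and ordered by level, with 1 point per mouse (circles βIgf1r, squares βIgf1rKD). Syt13 stands highest at 222 CPM per kb and Rims1 lowest at 0.040, the groups overlap for all of them but Cadps2, and Cplx1 and Rab27b are the most scattered among the tested genes.

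To find which of these genes differed between the groups, βIgf1rKD was compared with βIgf1r by edgeR's quasi-likelihood test across all 15474 genes tested, with Benjamini-Hochberg adjustment. None of the 38 exocytosis genes tested passed an adjusted p of 0.05 (0 genes), the lowest adjusted value being 0.987. Over all genes 0% passed that threshold. At an unadjusted p under 0.05 there were 3 exocytosis genes (7.90%), all lower, against 4.12% of all genes in either direction, 1.89% for lower and 2.23% for higher ones. These 3 were Cadps2, Syt5 and Rab37. The number was 3 with DESeq2 and 4 with limma-voom, and both gave 0 at an adjusted p under 0.05.

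Differences were small, as they were for most genes. The log2 fold change was below 0.25 in size for 34 of the 38 genes and for 12160 of all 15474 genes tested. For 35 of the 38 its 95% interval lay inside -1 to 1, short of a 2-fold change. For 31 genes the interval lay inside -0.5 to 0.5. Such intervals were not counted over all genes. Of the 38 genes 30 lay below 0 and 8 above, or 78.9% below 0 against 47.7% of all genes. The median log2 fold change was -0.07, against 0.01 over all genes. It lay between -0.11 and -0.036 when each mouse was left out in turn, and was -0.095 with Xist, -0.040 with the endothelial and -0.033 with the acinar score as a covariate. The deviation of the exocytosis genes from their own mean over mice had a median (log2) of 0.099, 0.0030, 0.0245 and 0.074 in βIgf1r mice. It was -0.033, 0.0098, -0.16 and -0.0040 in βIgf1rKD mice. M149 and M148, the extremes, had the highest and the lowest acinar share. The other mice did not follow that order, as M152 at a share of 14.2% lay above M151 at 3.24%.

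**Figure D2:**
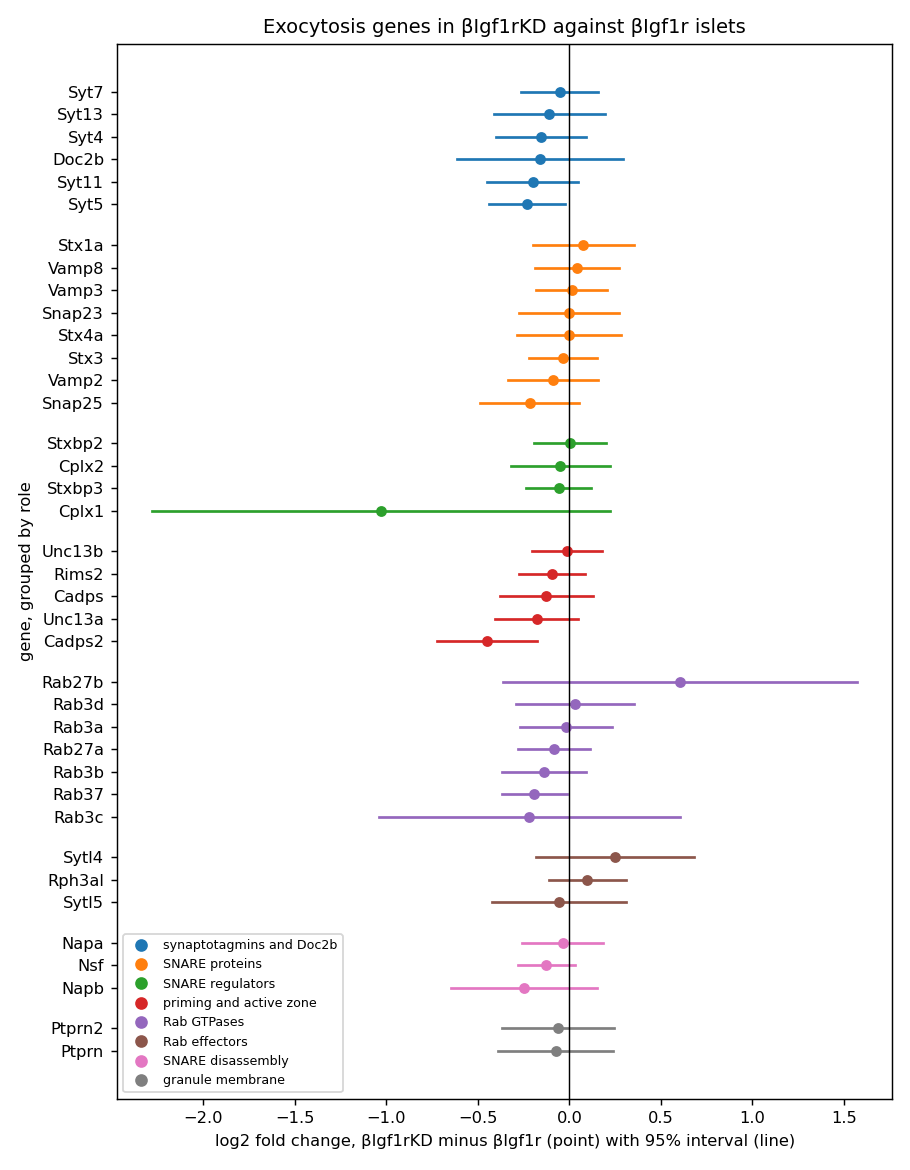
Log2 fold change of βIgf1rKD against βIgf1r (points) with 95% intervals (lines) for the 38 exocytosis genes tested, grouped by role (colours). Most points lie just left of 0 within 0.25, and the intervals of Cadps2, Syt5 and Rab37 alone end below 0, without passing adjustment for all genes.

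Cadps2 (ENSMUSG00000017978), the second calcium-dependent activator protein for secretion, showed the clearest difference. It had 16.7, 13.2, 17.2 and 15.5 CPM in βIgf1r mice M148, M151, M152 and M153, and 11.04, 9.78, 13.1 and 11.99 CPM in βIgf1rKD mice M145, M146, M149 and M150. All 4 βIgf1rKD values were below all 4 βIgf1r values. Cadps2 was the 1 gene of the 38 whose mice did not overlap, which held for 2.22% of all genes, and for 1.27% in this direction. The gap between M151 and M149 was narrow, at 13.2 and 13.1 CPM. The log2 fold change was -0.45 ± 0.12 (SE), with a 95% interval of -0.72 to -0.18 (edgeR, unadjusted p = 0.00453, adjusted p = 0.987). Its unadjusted p stayed under 0.05 with each mouse left out, with the acinar score as a covariate and with DESeq2 and limma-voom. Once the endothelial markers entered as a covariate, the log2 fold change was -0.096 (unadjusted p = 0.649). Because the endothelial score nearly follows the groups, such a fit cannot tell its part from the group difference.

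Cadps2 lies on chromosome 6 from 23262773 to 23839421 on the minus strand (GRCm38). The 250 bases before its start, from RefSeq on GRCm38.p6, are shown because Cadps2 was the gene with the clearest difference, beside Nsf, which had the smallest spread between mice of a group, and Sytl4, which had one of the higher values in βIgf1rKD. Capitals mark the E-box CACGTG and the GC box GGGCGG or its reverse complement CCGCCC. The Cadps2 window is chr6:23839422-23839671, that of Nsf chr11:103954057-103954306 and that of Sytl4 chrX:133981813-133982062, all on the minus strand.
Cadps2: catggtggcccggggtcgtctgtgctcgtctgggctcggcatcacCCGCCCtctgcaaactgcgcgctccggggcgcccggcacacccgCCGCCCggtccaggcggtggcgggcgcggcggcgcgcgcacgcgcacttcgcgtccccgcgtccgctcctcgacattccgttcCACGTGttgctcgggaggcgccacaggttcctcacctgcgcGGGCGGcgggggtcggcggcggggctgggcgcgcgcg
Nsf: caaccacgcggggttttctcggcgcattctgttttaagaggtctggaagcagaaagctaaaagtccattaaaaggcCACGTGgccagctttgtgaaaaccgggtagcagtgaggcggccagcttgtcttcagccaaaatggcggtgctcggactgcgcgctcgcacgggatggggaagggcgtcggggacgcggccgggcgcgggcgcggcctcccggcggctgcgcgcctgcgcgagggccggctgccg
Sytl4: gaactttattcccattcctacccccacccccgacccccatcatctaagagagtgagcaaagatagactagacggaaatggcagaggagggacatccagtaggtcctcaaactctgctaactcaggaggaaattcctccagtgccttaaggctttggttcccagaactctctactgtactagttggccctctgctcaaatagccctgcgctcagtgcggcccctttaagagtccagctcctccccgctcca

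The Cadps2 window held 1 E-box and 3 GC boxes and was 78% G or C, that of Nsf held 1 E-box and no GC box at 66%, and that of Sytl4 held neither at 53.2%. Of the 39 exocytosis genes, 28 had an entry in the promoter table, with 31 windows. Searched on both strands, E-boxes were in 19.4% of these windows (Cadps2, Napa, Nsf, Rab27a, Stxbp2 and Unc13b) against 6.02% of all 32851 windows of the same length. GC boxes were in 58.1% against 32.7%, and the CRE half-site TGACG in 35.5% against 17.8%. These shares describe the windows and were not tested.

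The priming and active zone factors as a group lay below 0 in 5 of 5 genes tested, with a median log2 fold change of -0.13. Cadps had 134, 148.1, 132 and 140 CPM in βIgf1r and 113, 144, 108 and 143 CPM in βIgf1rKD mice. Mice M146 and M150 lay within the βIgf1r range and M145 and M149 below it, and the log2 fold change was -0.13 ± 0.11 (SE, edgeR unadjusted p = 0.294). Unc13a, the Munc13 protein that opens syntaxin for SNARE assembly, had -0.18 ± 0.10 (unadjusted p = 0.109), Rims2 -0.097 ± 0.080 (unadjusted p = 0.256) and Unc13b -0.013 ± 0.085 (unadjusted p = 0.882).

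Synaptotagmins and Doc2b lay below 0 in 6 of 6 genes, 1 of them at an unadjusted p under 0.05, with a median of -0.16. Syt5 (ENSMUSG00000004961, chromosome 7 from 4539765 to 4547541), a calcium-binding synaptotagmin of dense-core vesicles, had 37.4, 28.7, 32.1 and 31.7 CPM in βIgf1r and 28.6, 27.1, 26.0 and 29.0 CPM in βIgf1rKD mice. The groups overlapped by 1 mouse on each side (M151 and M150), and the log2 fold change was -0.23 ± 0.092 (SE, edgeR unadjusted p = 0.0315, adjusted p = 0.987). Without M148, the mouse with the highest value, it was -0.16 (unadjusted p = 0.102). The call was also lost without M146 or M149 (unadjusted p = 0.0609 and 0.0755) and with Xist or the acinar score as a covariate (unadjusted p = 0.0661 and 0.0954). With the endothelial score as a covariate the value was 0.017 (unadjusted p = 0.919).

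The abundant Syt13 had 954, 773, 868 and 874 CPM in βIgf1r and 757, 929, 720 and 811 CPM in βIgf1rKD mice. The groups overlapped over most of their range, with a log2 fold change of -0.11 ± 0.14 (SE, unadjusted p = 0.439). Syt7, a high-affinity calcium sensor of insulin release, had -0.054 ± 0.093 (unadjusted p = 0.574). The neighbouring values were -0.20 ± 0.11 for Syt11 (unadjusted p = 0.100), -0.15 ± 0.11 for Syt4 (unadjusted p = 0.194) and -0.16 ± 0.20 for Doc2b (unadjusted p = 0.446).

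SNARE proteins were the role nearest to 0, with 5 genes below and 3 above, a median of -0.0021 and 0 at an unadjusted p under 0.05. Vamp2 had 213, 169, 150 and 181 CPM in βIgf1r and 170, 165, 170 and 164 CPM in βIgf1rKD mice. All βIgf1rKD values lay inside the βIgf1r range and were closer together, with an SD of 3.09 against 26.4 CPM (n = 4 each). Its log2 fold change was -0.091 ± 0.11 (SE, unadjusted p = 0.425), and 0.0046 without M148. Snap25, named here for its values, had 117, 105, 80.9 and 109 CPM in βIgf1r and 93.4, 77.9, 85.4 and 96.6 CPM in βIgf1rKD mice, with a log2 fold change of -0.22 ± 0.12 (SE, unadjusted p = 0.103). M152 among the βIgf1r mice lay with the βIgf1rKD mice. The 2 members nearest to no difference were Snap23 at -0.0016 ± 0.12 and Stx4a at -0.0026 ± 0.13.

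Among the SNARE regulators 3 genes lay below 0 and 1 above. Cplx2 had 440, 460, 399 and 386 CPM in βIgf1r and 404, 455, 343 and 426 CPM in βIgf1rKD mice, which overlapped, with a log2 fold change of -0.049 ± 0.12 (SE, unadjusted p = 0.692). Cplx1, its low relative, was named after its values were seen. It had 2.45, 2.80, 2.39 and 1.99 CPM in βIgf1r and 1.03, 0.36, 0.44 and 2.76 CPM in βIgf1rKD mice. M145, M146 and M149 lay below all βIgf1r mice and M150 within them. The log2 fold change of -1.03 ± 0.56 (SE) was the largest in size of the 38 genes, yet its 95% interval ran from -2.28 to 0.22 (unadjusted p = 0.0958), and its counts went down to 10 in a library. Stxbp2 and Stxbp3, Munc18 proteins that bind syntaxins, had 0.0032 ± 0.087 and -0.060 ± 0.080.

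Rab GTPases lay below 0 in 5 of 7 genes. Rab37 (ENSMUSG00000020732, chromosome 11 from 115091431 to 115162236), a Rab of secretory granules, had 134, 124, 117 and 133 CPM in βIgf1r and 107, 118, 106 and 113 CPM in βIgf1rKD mice. M146 lay just above M152 and the other βIgf1rKD mice below all βIgf1r mice. This gave a log2 fold change of -0.19 ± 0.079 (SE, edgeR unadjusted p = 0.0356, adjusted p = 0.987). Its unadjusted p rose above 0.05 without M148, M153, M145, M149 or M150, with unadjusted p between 0.0623 and 0.0938 and a log2 fold change between -0.20 and -0.17. Covariates ended the call too, at -0.11 (unadjusted p = 0.498) with the endothelial score, -0.14 (unadjusted p = 0.137) with the acinar score and -0.21 (unadjusted p = 0.0518) with Xist, and so did testing without a filter on low counts (unadjusted p = 0.0623).

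Rab27a had 205, 190, 184 and 206 CPM in βIgf1r and 191, 197, 167 and 186 CPM in βIgf1rKD mice, which overlapped except for M149, with a log2 fold change of -0.085 ± 0.088 (SE, unadjusted p = 0.359). Its paralog Rab27b had the highest fold change of the 38 genes, 0.60 ± 0.43 (SE, unadjusted p = 0.194), with a 95% interval of -0.36 to 1.57. It had 2.34, 3.86, 5.13 and 4.60 CPM in βIgf1r and 8.23, 1.86, 8.92 and 5.20 CPM in βIgf1rKD mice. M146 was the lowest of all 8 mice and M145 and M149 the highest. Without M146 the log2 fold change was 0.90 (unadjusted p = 0.0117), and with the acinar score as a covariate it was -0.12 (unadjusted p = 0.708). The estimated counts split reads that paralogs share by a model, which adds an uncertainty that the replicate spread does not show.

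The Rab effectors were the role with 2 of 3 genes above 0. Sytl4 (ENSMUSG00000031255), which is X-linked at chromosome X from 133936385 to 133981812, had 229, 282, 231 and 240 CPM in βIgf1r and 299, 361, 182 and 327 CPM in βIgf1rKD mice. Its log2 fold change was 0.25 ± 0.19 (SE, unadjusted p = 0.225), and 0.42 (unadjusted p = 0.00723) without M149. The 4 libraries with high Xist were those with the 4 highest Sytl4 values, 282 to 361 CPM against 182 to 240 CPM. With Xist as a covariate the log2 fold change of Sytl4 was -0.0057 (unadjusted p = 0.969). Rph3al (Noc2), a Rab3 and Rab27 effector of endocrine granules, had 89.4, 91.5, 87.3 and 84.7 CPM in βIgf1r and 91.4, 109.8, 81.4 and 94.9 CPM in βIgf1rKD mice, with the latter reaching past the former on both sides. Its log2 fold change was 0.098 ± 0.094 (SE, unadjusted p = 0.325).

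**Figure D3:**
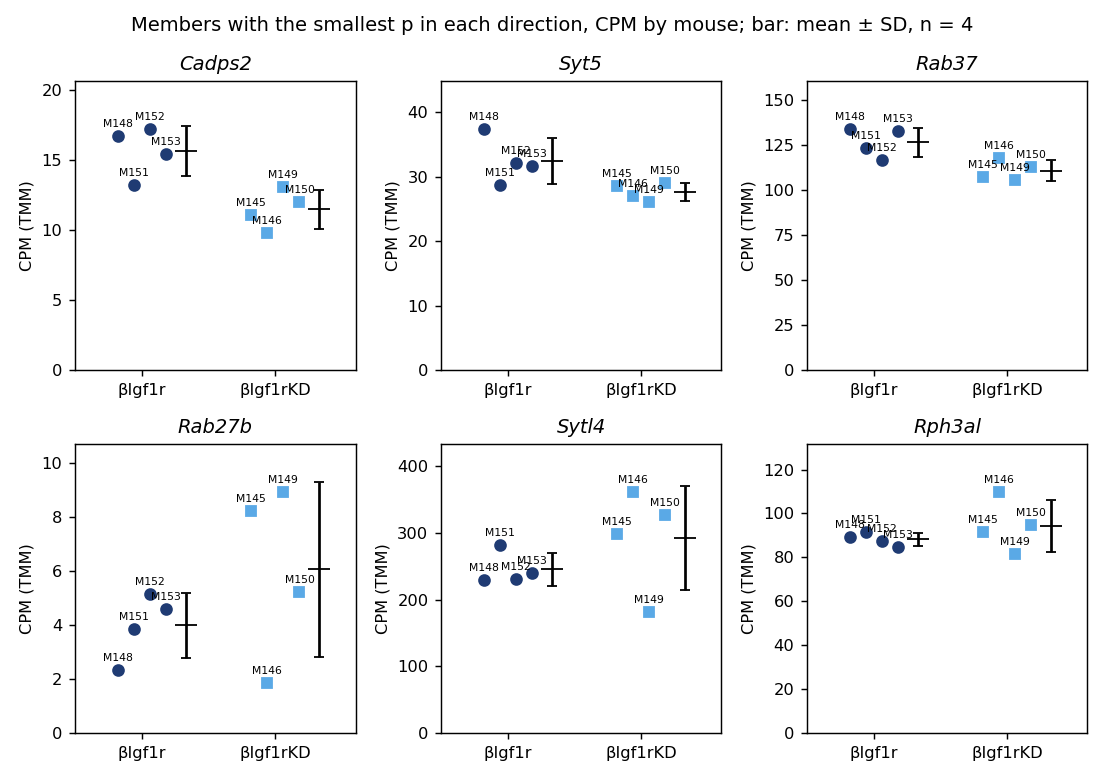
CPM (TMM) by mouse of the 3 exocytosis genes with the smallest p among those lower (Cadps2, Syt5, Rab37) and among those higher (Rab27b, Sytl4, Rph3al) in βIgf1rKD, with the mean ± SD of 4 mice. For Cadps2 every βIgf1rKD mouse lies below 13.2 CPM, the lowest βIgf1r value, whereas the other 5 genes overlap between the groups.

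SNARE disassembly genes lay below 0 in 3 of 3 genes and granule membrane genes in 2 of 2, with 0 at an unadjusted p under 0.05. Napa had 212, 167, 195 and 190 CPM in βIgf1r and 184, 203, 186 and 172 CPM in βIgf1rKD mice, all of the latter inside the range of the former, with a log2 fold change of -0.036 ± 0.098 (SE, unadjusted p = 0.719). Nsf, the ATPase, had the smallest within-group SD of the 38 genes, 0.070 (log2), and a log2 fold change of -0.13 ± 0.069 (SE, unadjusted p = 0.0963). It was named for that. Ptprn had 549, 394, 522 and 429 CPM in βIgf1r and 432, 516, 411 and 438 CPM in βIgf1rKD mice, again inside the βIgf1r range, with a log2 fold change of -0.075 ± 0.14 (SE, unadjusted p = 0.602). Ptprn2 had -0.064 ± 0.14 (unadjusted p = 0.648).

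The spread between mice of a group set what could be seen. The within-group SD of log2 CPM had a median of 0.155 over the exocytosis genes and 0.205 over all genes tested, and 30 of the 38 were under 0.2. The 3 with the largest spread were Cplx1 at 0.893, Rab27b at 0.801 and Rab3c at 0.627, which are also the 3 lowest of the tested genes per kb. In CPM, not divided by exon length, Rab3c at 11.4 was above Stx1a at 8.7, Napb at 8.5 and Doc2b at 4.4. Those genes had smaller SDs, at 0.160, 0.278 and 0.299. For Cplx1, Rab27b and Rab3c a 2-fold change was not excluded by the interval.

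Ratios of related genes within a library do not depend on library size or on RNA from cells that express neither gene. They do depend on the mix of cells where cell types express the genes of a pair unequally, which was not tested. The log2 ratios of 16 pairs were compared by exact permutation (two-sided, 70 assignments of the mice, smallest possible p 0.0286). Snap25 over Snap23 was the 1 pair whose mice did not overlap. Its log2 ratio of counts was 1.96, 1.70, 1.68 and 1.59 in βIgf1r and 1.44, 1.53, 1.54 and 1.57 in βIgf1rKD mice. Each of the latter lay below each of the former, with means of 1.73 ± 0.16 and 1.52 ± 0.056 (SD, n = 4) and a difference of -0.21 (exact permutation p = 0.0286, adjusted p = 0.457 over the 16 pairs). M153 and M150 lay closest, at 1.59 and 1.57, and without M148 the difference was -0.14.

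Cplx1 over Cplx2 had the largest difference in size, from -7.41 ± 0.099 to -8.79 ± 1.21 (SD, n = 4), and M150 lay above all βIgf1r mice (exact permutation p = 0.143). Unc13a over Unc13b differed by -0.16 at the same exact permutation p of 0.143, from 0.87 ± 0.086 to 0.71 ± 0.18. The granule pair Ptprn and Ptprn2 had nearly equal mean ratios, -0.59 ± 0.17 and -0.59 ± 0.052 (SD, n = 4), with a difference of -0.0028. Vamp2 over Vamp3 and Syt7 over Syt13 differed by -0.089 and 0.060, with overlapping mice.

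**Figure D4:**
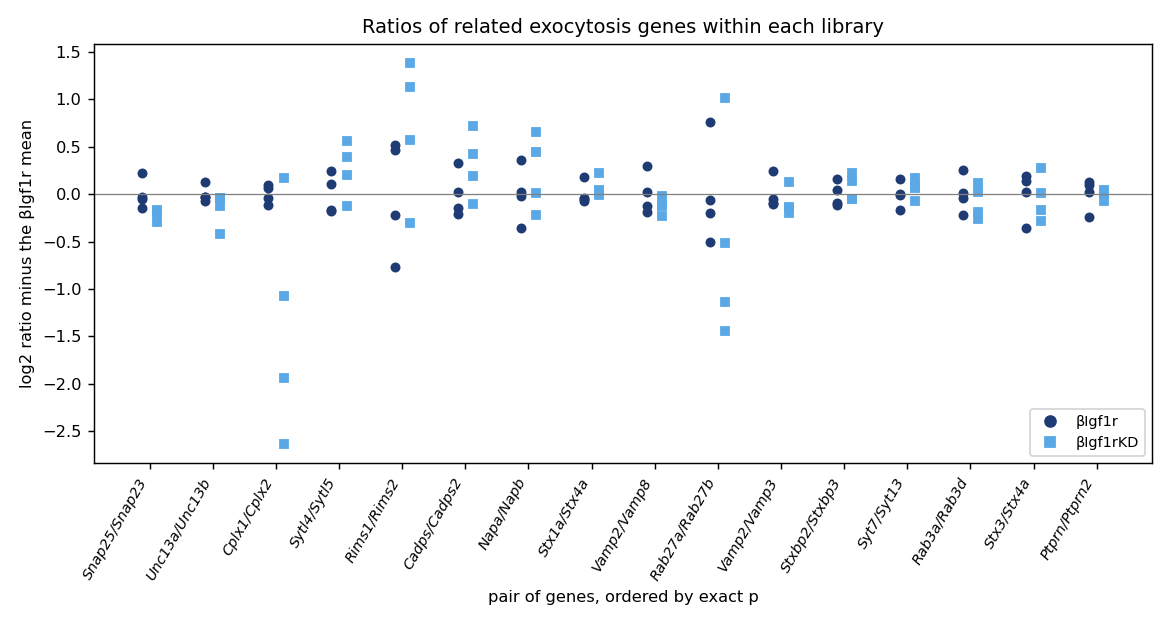
Log2 ratio of counts of 16 pairs of related exocytosis genes within each library, minus the βIgf1r mean of the pair, with 1 point per mouse (circles βIgf1r, squares βIgf1rKD). The 4 squares of Snap25 over Snap23 lie below the 4 circles, and Cplx1 over Cplx2 and Rab27a over Rab27b scatter widely. Ptprn over Ptprn2 has nearly equal group means, with the βIgf1r mouse M151 lowest.

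Since acinar cells have regulated exocytosis of their own, the level of each gene was set against the acinar marker share over the 8 mice. Pearson's r was negative for 29 of the 38 genes and positive for 9, with a median of -0.31 against -0.061 over all genes. After adjustment over the 38 genes 0 passed, with smallest adjusted p of 0.269 for r and 0.195 for Spearman's rho (exact permutation tests), and 6 had an unadjusted p under 0.05 for r. The share of all genes at that threshold was not computed, so that this number does not set the exocytosis genes apart. The highest r was that of Rab27b, which is known from zymogen granules of acinar cells, at 0.85 (rho 0.86, exact permutation p = 0.00707 and 0.0107, n = 8). It was 0.94 without M148 and M151, the mice farthest from the median share, and between 0.81 and 0.90 with each mouse left out. Rab3d and Vamp8, also known from zymogen granules, had r 0.34 and 0.42. With both measures centred on their group means the r of Rab27b was 0.83 (exact permutation within groups, p = 0.00174, the smallest that the 576 permutations can give). Each group alone, with 4 mice, was not given an r.

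The strongest negative values were those of Syt7 (r -0.75), Cplx2 (-0.75), Rab37 (-0.74), Rims2 (-0.73) and Syt11 (-0.72). Without M148 and M151 these were -0.41, -0.72, -0.53, -0.67 and -0.32, so that the values of Syt7 and Syt11 rest largely on those libraries. The r of Cadps2 with the acinar share was -0.094.

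A like comparison with the share of 6 α-cell markers, mostly Gcg, was added after the data were seen. That share was 1.25% to 4.72% in βIgf1r and 1.02% to 2.81% in βIgf1rKD mice. Rab3c, a Rab3 GTPase named here for this value, had r 0.97 and rho 0.93 (exact permutation p = 0.000124 and 0.00223, n = 8), the only 1 of the 38 genes with an adjusted p under 0.05 for r (0.00471), whereas that for rho was 0.0848. Its level was 10.4, 20.6, 7.37 and 10.8 CPM in βIgf1r and 11.2, 8.18, 5.88 and 16.8 CPM in βIgf1rKD mice. M151 and M150 were highest in both measures and M149 lowest in both. Shares of δ-cell and PP-cell markers were also highest in M151 (0.417% and 0.572%) and lowest in M149 (0.149% and 0.182%). No r with those shares was computed, so that the value is not shown to be particular to α-cells. The same mice entered the comparison with the acinar share, highest in M149, so that these comparisons are not independent. For Rab3c and the α-cell share, r was 0.96 without M151 and M149. With each mouse left out it lay between 0.96 and 0.98, and with Gcg taken out of the markers it was 0.86. Centred on the group means r was 0.97 (exact permutation within groups, p = 0.00347). Between the groups Rab3c overlapped, with a log2 fold change of -0.22 ± 0.37 (SE, unadjusted p = 0.562). Rims2 had r 0.88 and Rab3d -0.84 with the same share (adjusted p = 0.119 and 0.153, exact permutation tests), and without M151 and M149 these were 0.52 and -0.99.

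**Figure D5:**
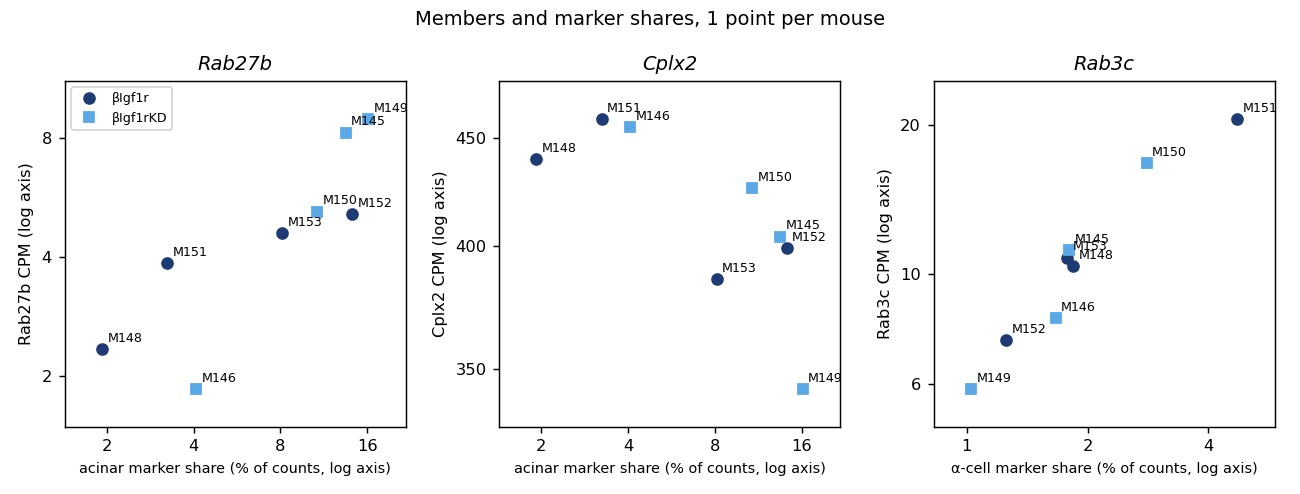
CPM of Rab27b and Cplx2 against the acinar marker share and of Rab3c against the α-cell marker share (all axes log), with 1 labelled point per mouse (circles βIgf1r, squares βIgf1rKD). Rab27b is higher where the acinar share is higher (r 0.85), Cplx2 is lower there (r -0.75) and Rab3c follows the α-cell share (r 0.97), with mice of both groups along each course.

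To place the 39 genes in the rest of the secretory machinery, a list of 91 other exocytosis genes written by function was examined, of which 84 were tested. Of these 51 lay below 0 and 33 above, with a median log2 fold change of -0.011, 0 at an adjusted p and 3 at an unadjusted p under 0.05 (3.57%, against 4.12% of all genes). Syt17, an atypical synaptotagmin, had 1.81, 2.36, 1.42 and 1.52 CPM in βIgf1r and 1.08, 0.89, 0.83 and 1.43 CPM in βIgf1rKD mice, which overlapped by M150 and M152 only. Its log2 fold change was -0.74 ± 0.27 (SE, edgeR unadjusted p = 0.0206), from 19 to 68 counts. The call was lost with the acinar score as a covariate (-0.61, unadjusted p = 0.0860) and without M151, M146 or M149 (-0.57, -0.66 and -0.64, with unadjusted p of 0.0653, 0.0522 and 0.0527). Erc2, an active zone scaffold, had 23.0, 21.3, 17.2 and 18.4 CPM against 16.6, 16.5, 13.9 and 17.8 CPM, with M150 above M152 and a log2 fold change of -0.30 ± 0.12 (SE, unadjusted p = 0.0290). It was -0.18 (unadjusted p = 0.153) with the acinar and -0.29 (unadjusted p = 0.244) with the endothelial score as a covariate, and without M148, M151 or M149 it was -0.23, -0.27 and -0.24 (unadjusted p = 0.0911, 0.0681 and 0.0752).

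Syt12 was the 1 gene of the 84 tested from that list whose mice did not overlap, which held for 2.22% of all genes. It had 0.48, 0.55, 0.46 and 0.66 CPM in βIgf1r and 0.70, 0.86, 2.61 and 0.74 CPM in βIgf1rKD mice. M149 alone was far above the rest, at 60 counts against 13 to 30 in the other libraries. Its log2 fold change was 1.181 ± 0.46 (SE, unadjusted p = 0.0293), and 0.52 (unadjusted p = 0.0979) without M149. The call was also lost without M148, M151 or M152 (unadjusted p = 0.0679, 0.0541 and 0.0668), with limma-voom (0.0655) and with the acinar score as a covariate (0.125). By role the other synaptotagmins and calcium sensors lay below 0 in 8 of 12 with a median of -0.18, the other granule membrane genes in 5 of 5 with -0.14, and the other Rab effectors in 3 of 8 with 0.11. The exocyst genes, which tether vesicles, lay below 0 in 6 of 9 with a median of -0.013, the other SNARE proteins in 12 of 16 with -0.037, the other SNARE regulators in 4 of 8 with -0.0042, the other priming and active zone genes in 5 of 11 with 0.060 and the other Rab GTPases in 7 of 14 with 0.0016. Napg, the 1 other disassembly gene, had -0.10.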

How the data were processed

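Islet RNA of 8 mice was sequenced from stranded mRNA libraries, 1 per mouse. The authors deposited 1 estimated count per gene and mouse, not normalized; the submitters' processing notes name fastp, kallisto and GRCm38, and versions and the annotation release are not given in the sources used here. Groups and mouse numbers came from the sample titles. Of 53012 identifiers 51906 matched GENCODE M21 (GRCm38), whose exon lengths gave CPM per kb, not the effective lengths of kallisto. Counts were rounded. In R 4.3.3, edgeR 4.0.16 kept 15474 genes (minimum count 10 in at least 4 mice, minimum total 15), and TMM scaling, the quasi-likelihood test and Benjamini-Hochberg adjustment followed. SE and 95% intervals were derived from the fold change, F and its degrees of freedom. Every p of a log2 fold change is unadjusted unless named otherwise. Log2 CPM used a prior count of 2, ratios exact permutation tests. P-values measure the spread between these mice and libraries. Depth limits genes of few counts most.

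The genes and lists were chosen with earlier results of these data known. Values per mouse were given for genes at an unadjusted p under 0.05 or without overlap, the 3 smallest p in each direction, the highest gene per kb of each role and, of the other exocytosis genes, the 3 smallest p. Alternatives were RLE factors, DESeq2 1.42.0, limma-voom (limma 3.58.1), other filters, Xist, acinar or endothelial covariates, a prior count of 0.5, other acinar measures and leaving out each mouse. The α-cell share and the centring of r within groups were added after the data were seen. The scripts were tested on simulated data.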

Additional observations from a re-analysis of the deposited data

How the results depend on the processing

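The number of exocytosis genes at an adjusted p under 0.05 was 0 under each of 16 alternatives. The number at an unadjusted p was 1 with the acinar and 1 with the endothelial covariate, and 1 to 4 with each mouse left out (1 without M148). The number without overlap was 1 to 4 with each mouse left out, and that of pairs 1 to 3. Of the other exocytosis genes 9 passed with the Xist, 0 with the acinar and 8 with the endothelial covariate, 5 with DESeq2 and 0 to 9 with each mouse left out (0 without M149, 9 without M150). The share of all genes passing under each of these settings is not given, so that the numbers cannot be set against it. DESeq2 also tested genes below the edgeR filter. Genes correlated with the acinar share at an adjusted p numbered 0 to 1, with 1 only without M146. Of 256 log2 fold changes of 16 named genes, 209 kept direction and side of the threshold. That number pools in genes that were not called in the main fit, for which staying above the threshold says little. Of the genes called there, Cadps2 kept both in 15 of 16 alternatives, Syt17 in 12 and Erc2 in 11. Syt5 and Syt12 kept both in 10 each and Rab37 in 7. With the endothelial covariate the sign turned for Syt5 (0.017), Sytl4 (-0.25), Rph3al (-0.023), Syt13 (0.064), Vamp2 (0.19), Napa (0.20) and Ptprn (0.21). With the acinar covariate it turned for Rab27b (-0.12) and Cplx2 (0.046), and with Xist for Sytl4 (-0.0057) and Napa (0.0058). Values with the endothelial covariate come from a score that nearly follows the groups, so that score and group cannot be told apart there. With each mouse left out Vamp2 ran from -0.17 to 0.0046, Cplx2 from -0.11 to 0.025, Napa from -0.095 to 0.016 and Ptprn from -0.15 to 0.0031. The cause was not tested. Depth limits Cplx1, Syt12 and Syt17 most, with counts down to 10, 13 and 19 in a library. Rab27b had 52 to 211 counts and a within-group SD of 0.801, against 77 to 212 counts and 0.299 for Doc2b. The part of depth in the spread of Rab27b was not tested. No paired analysis was possible because the groups share no mouse number.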
